A study of Mus musculus with 9 samples.

Results

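Respiratory complex I (NADH:ubiquinone oxidoreductase) is described here through its nuclear-encoded subunit genes. The members were all rows of the 9 deposited count tables whose symbol is Ndufa, Ndufb, Ndufc, Ndufs, Ndufv or Ndufab followed by a number. Assembly factors (Ndufaf) and pseudogenes were kept out. This gave 37 of 24421 rows. By known position in the complex they were 7 core subunits, 9 accessory subunits of the matrix arm, 19 accessory subunits of the membrane arm, the acyl carrier protein Ndufab1, which sits in both arms, and Ndufa4, which was first purified with complex I and is now assigned to complex IV. The core subunits encoded by mitochondrial DNA and Ndufb1 had no row under the symbols searched, so they were not analysed here.

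The libraries came from mice with laser-induced choroidal neovascularization (CNV), a model in which burns break the Bruch membrane and vessels grow in from the choroid. All groups were male mice aged 8 weeks with 4 burns per eye and a single reagent put into the vitreous (5 µg at 5 mg/ml). The control reagent was Fc. VEGF Trap is a decoy receptor that takes up VEGF, and ABTAA is an antibody to angiopoietin 2 that switches on Tie2, its receptor on endothelial cells. Laser capture took the lesion with its surroundings from the retinal pigment epithelium (RPE) and choroid. Libraries were made from 500 ng of total RNA with a kit that reads 3′ transcript ends. Each group held 3 libraries. The labels do not link libraries to animals, so p-values reflect the spread among the samples at hand, and that spread may be technical. All animals carried burns, so no group shows the tissue without a lesion. In the Fc tables the column heading names knockout controls instead of Fc, and the sample titles were followed.

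Complex I is the entry point of electrons from NADH into the respiratory chain. Its matrix arm binds NADH, carries electrons along iron-sulfur clusters and hands them to ubiquinone, and its membrane arm pumps protons. The accessory subunits hold the core together and are needed for its assembly and stability, and the RPE depends heavily on mitochondrial respiration.

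The promoter windows of 4 members are shown because Ndufb3 and Ndufa10 were the genes that passed the test below, Ndufa5 came next to the threshold, and Ndufs6 held the most motif matches of these 4. Each runs from 250 bases before to 50 bases after the RefSeq start site (GRCm38.p6), 5′ to 3′ on the gene's strand. Capitals mark matches on either strand to 5 motifs of factors known to act on respiratory genes: GCGC and GCGC around an A and any base for NRF1, CCGGAAG for ETS factors such as GABP, AAGATGGC for YY1, CCAAT for NF-Y and GGGCGG for Sp1. A match on the other strand appears as its reverse complement, ATTGG for NF-Y and CCGCCC for Sp1.
Ndufb3 (chr1:58586147-58586446, plus strand): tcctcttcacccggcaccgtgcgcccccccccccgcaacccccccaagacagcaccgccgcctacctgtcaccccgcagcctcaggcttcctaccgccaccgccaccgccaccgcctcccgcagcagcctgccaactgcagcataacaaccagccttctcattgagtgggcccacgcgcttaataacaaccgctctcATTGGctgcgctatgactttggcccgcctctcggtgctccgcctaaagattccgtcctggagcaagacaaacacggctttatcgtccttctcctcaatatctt
Ndufa10 (chr1:92473709-92474008, minus strand): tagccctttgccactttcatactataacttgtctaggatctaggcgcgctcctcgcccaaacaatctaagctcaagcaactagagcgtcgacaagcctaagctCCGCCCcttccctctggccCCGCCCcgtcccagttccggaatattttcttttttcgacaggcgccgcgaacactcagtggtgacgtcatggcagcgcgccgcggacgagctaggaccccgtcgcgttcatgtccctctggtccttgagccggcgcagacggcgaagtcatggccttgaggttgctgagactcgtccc
Ndufa5 (chr6:24527641-24527940, minus strand): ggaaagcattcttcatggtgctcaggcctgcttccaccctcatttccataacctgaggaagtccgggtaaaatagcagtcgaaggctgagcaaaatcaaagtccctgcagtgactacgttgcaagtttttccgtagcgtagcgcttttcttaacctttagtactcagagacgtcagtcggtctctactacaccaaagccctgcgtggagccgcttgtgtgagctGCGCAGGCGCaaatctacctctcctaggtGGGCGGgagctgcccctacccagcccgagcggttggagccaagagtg
Ndufs6 (chr13:73328433-73328732, minus strand): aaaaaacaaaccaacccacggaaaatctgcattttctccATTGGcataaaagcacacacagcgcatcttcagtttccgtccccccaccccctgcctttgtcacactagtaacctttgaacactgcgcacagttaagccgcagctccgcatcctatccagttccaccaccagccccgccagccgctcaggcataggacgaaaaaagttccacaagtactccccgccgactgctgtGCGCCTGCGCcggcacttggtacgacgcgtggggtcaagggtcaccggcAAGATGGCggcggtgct

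The Ndufb3 window held 1 NF-Y match, and the Ndufa10 window held 2 Sp1 matches. The Ndufa5 window, 1 of 2 listed for this gene, held an NRF1 and an Sp1 match, and the Ndufs6 window held NF-Y, NRF1 and YY1 matches. No matches overlapped in these windows. A window was found for 33 of 37 members. NRF1 matches were present in 7 of these 33 genes (21.2%), against 5.19% of the 27025 genes with a window. YY1 matches were likewise present in 7 (21.2%), against 3.19% of all genes. ETS matches were found in 4 members (12.1%, against 9.93%), Sp1 matches in 15 (45.5%, against 38.2%) and NF-Y matches in 10 (30.3%, against 41.1%). A match describes the letters of the window and is not evidence of binding.

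Total counts ran from 6335805 to 14439835 per library, and the members held between 0.205% and 0.2532% of them. Rn45s, a ribosomal RNA row, took 10.05% to 11.8% of counts with Fc, 11.7% to 13.13% with ABTAA and 12.91% to 15.82% with VEGF Trap, where all libraries lay above Fc and VEGF Trap 1, with the lowest share of members, was the highest. Its part in the results was not tested. All 37 members had a count in every library, the lowest being 17, and all 37 passed the filter on low counts among 14054 tested genes. By annotation, 9 members matched a transcript of another gene at their 3′ end, 14 overlapped an exon on the opposite strand and 3 an exon on the same strand. Their reads may thus have been split or shared. These sets share members, as Ndufb2 (Braf), Ndufb6 (Smim27) and Ndufb8 (Gm20538) matched the gene that overlaps them. Markers of the labelled tissue were present: the summed level of 8 RPE markers, Rpe65 and Rlbp1 among them, was 1736 to 2907 CPM (counts scaled to library size by TMM) in all libraries, although Best1 had a count of 0 in at least 1 library. In Fc 1 the neutrophil markers summed to 516 CPM, against 47.9 to 141.7 CPM in the other 8 libraries. VEGF Trap 1 stood apart in photoreceptor markers, at 173.9 CPM against 34.6 to 91.4 CPM elsewhere. It was also highest in lens markers (53.4 CPM against 11.8 to 24.3 CPM) and in markers listed for melanocytes (4125 CPM against 2214 to 3033 CPM). The calls of members, and the medians of the members and of the membrane arm, are given with and without these libraries. Values per library are in the order 1, 2 and 3, and CPM of 3′ end counts were not divided by length, so levels are compared here between libraries and not between genes.

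With ABTAA, 2 of 37 members were lower than with Fc, Ndufb3 and Ndufa10, none was higher, and 35 did not pass (edgeR quasi-likelihood F-test, Benjamini-Hochberg over all tested genes, threshold 0.05). Of all tested genes, 1.66% passed in either direction, 0.676% lower and 0.982% higher. With VEGF Trap, 1 of 37 members was lower, Ndufb3, and none was higher, where 1.22% of all tested genes passed in either direction, 0.555% lower and 0.662% higher. At an unadjusted p under 0.05 no member was higher in either comparison, where 8.66% of all tested genes were with ABTAA and 7.83% with VEGF Trap. By the same criterion 5 members with ABTAA and 4 with VEGF Trap were lower, where 8.12% and 7.42% of all tested genes were. DESeq2 and limma-voom also called no member higher. Both comparisons use the same Fc libraries, so their values are set side by side and are not independent. In tissue pieces of mixed cells, fewer cells of a type and less RNA per cell cannot be told apart.

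**Figure D1:**
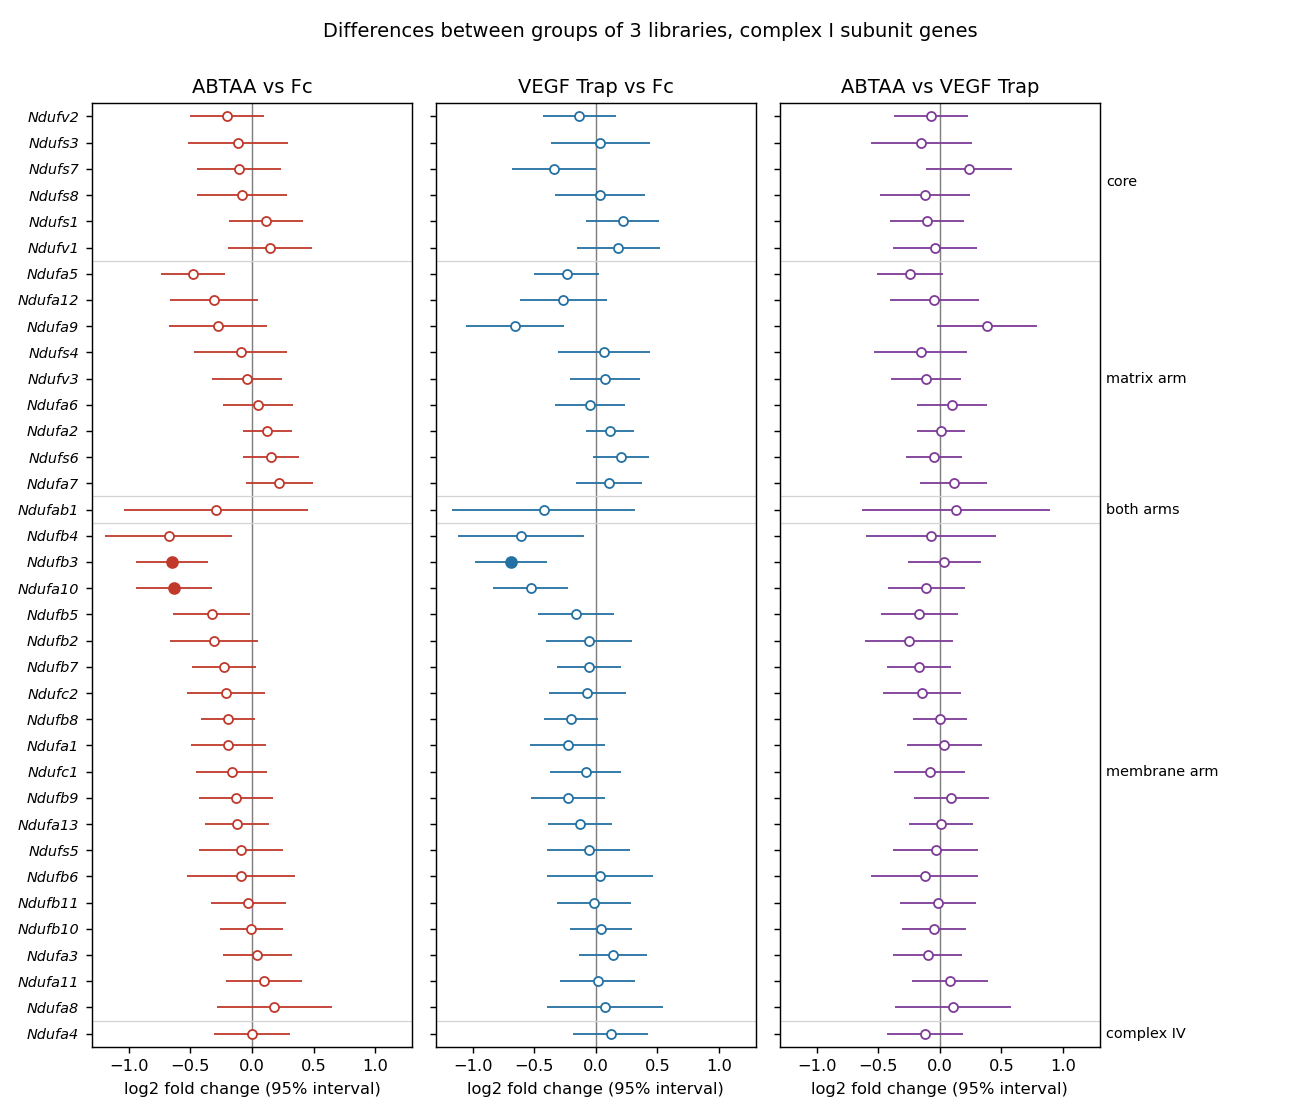
Log2 fold change of 36 members (rows, grouped by arm) for ABTAA against Fc, VEGF Trap against Fc and ABTAA against VEGF Trap, with 95% intervals from edgeR and filled points for an adjusted p under 0.05. The filled points are Ndufb3 and Ndufa10 in the ABTAA panel and Ndufb3 in the VEGF Trap panel, all left of 0, and the panel between the reagents has none.

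Ndufb3 encodes a small single-span subunit of the membrane arm (chromosome 1, 58586384 to 58595964, plus strand, GENCODE M21 on GRCm38). Its level was 86.9, 99.7 and 93.9 CPM with Fc, 48.5, 64.4 and 66.02 with ABTAA and 59.3, 62.8 and 51.6 with VEGF Trap. The lowest Fc library was above the highest library of both other groups. The mean was 93.5 ± 6.43 CPM (SD, n = 3) with Fc, 59.6 ± 9.65 CPM with ABTAA and 57.9 ± 5.73 CPM with VEGF Trap. Ndufb3 was 36.3% lower with ABTAA, which is -0.65 ± 0.14 (SE, adjusted p = 0.0324) on the log2 scale, with a 95% interval of -0.94 to -0.36. It was 38.0% lower with VEGF Trap, which is -0.69 ± 0.14 (SE, adjusted p = 0.0261) on the log2 scale, with an interval of -0.98 to -0.40. Between the reagents it differed by 0.04 ± 0.14 (SE, adjusted p = 0.994), with an interval of -0.26 to 0.33.

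The Ndufb3 calls rested on most of the libraries compared. Without Fc 1 the adjusted p was 0.0552 for ABTAA and 0.0535 for VEGF Trap, at log2 fold changes of -0.70 and -0.74. Without Fc 2 they were 0.138 and 0.142, and without Fc 3 they were 0.0843 and 0.073. The ABTAA call also missed the threshold without ABTAA 1 (0.0908) and without ABTAA 2 (0.114). The VEGF Trap call missed it without VEGF Trap 1 (0.0506) and without VEGF Trap 3 (0.0996). The ABTAA call was also lost under a correction for GC content (-0.57, adjusted p = 0.0641). Over all 20 alternatives the adjusted p ran from 0.000993 to 0.138 for ABTAA and from 0.000395 to 0.142 for VEGF Trap. Over the omissions the fold change kept its sign, from -0.73 to -0.52 for ABTAA and from -0.75 to -0.61 for VEGF Trap. No 3′ copy and no overlapping exon of another gene was found for Ndufb3, so neither limits its count in this annotation.

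Ndufa10 encodes a membrane-arm subunit on the matrix side that resembles nucleoside kinases (chromosome 1, 92439010 to 92473860, minus strand). Its level was 94.6, 118 and 79.3 CPM with Fc, 65.7, 57.9 and 64.5 with ABTAA and 74.9, 66.4 and 61.0 with VEGF Trap. Fc libraries did not overlap those of either reagent, but they were spread, with Fc 2 the highest. The mean was 35.6% lower with ABTAA, at -0.64 ± 0.15 (SE, adjusted p = 0.0397) on the log2 scale. With VEGF Trap the log2 fold change was -0.53 ± 0.15 (SE, adjusted p = 0.0747), which did not pass. It passed in 4 of 20 alternatives, DESeq2 (adjusted p = 0.0182), no filter (0.0183), library totals (0.0376) and removal of the common divisor (0.047), and the adjusted p was up to 0.332 in the others. Without Fc 1 this difference was -0.55 and without VEGF Trap 1 it was -0.60. Without Fc 2 the ABTAA difference was -0.47 (adjusted p = 0.189), and without Fc 1 it was -0.66 (adjusted p = 0.0773). It also missed the threshold without ABTAA 1, 2 or 3 (adjusted p = 0.077, 0.181 and 0.0685) and without VEGF Trap 2 (adjusted p = 0.0511), which enters through the shared spread. With the GC correction it was -0.65 (adjusted p = 0.0501), and over all 20 alternatives the adjusted p ran from 0.0028 to 0.189. No copy or exon overlap was found for this gene.

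**Figure D2:**
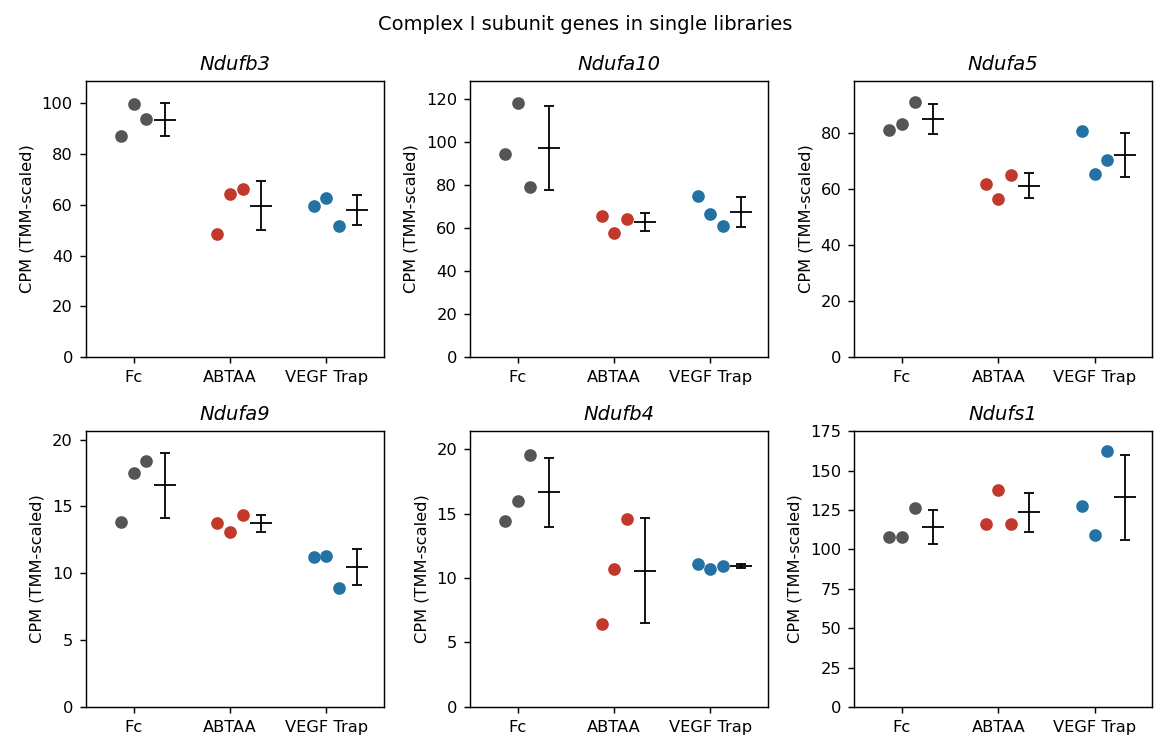
CPM (TMM-scaled, axes from 0) of Ndufb3, Ndufa10, Ndufa5, Ndufa9, Ndufb4 and Ndufs1 in each of the 9 libraries, with the mean and SD of each group of 3 beside its points. Ndufb3 and Ndufa10 lie lower in all 6 reagent libraries than in all 3 Fc libraries, whereas Ndufs1 groups overlap.

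Among the other membrane-arm accessory genes, Ndufb4, a subunit of the distal membrane arm, had levels of 14.4, 15.96 and 19.6 CPM with Fc, 6.40, 10.7 and 14.6 with ABTAA and 11.1, 10.7 and 10.95 with VEGF Trap. ABTAA 3 lay within the Fc range, and the VEGF Trap libraries all lay below it. Neither the ABTAA difference of -0.68 ± 0.25 (SE, adjusted p = 0.166) nor the VEGF Trap difference of -0.61 ± 0.24 (SE, adjusted p = 0.226) passed. Ndufb5, which spans the inner membrane, read 40.7, 46.7 and 54.4 CPM with Fc, 33.2, 39.97 and 40.1 with ABTAA and 37.8, 45.9 and 43.3 with VEGF Trap. Its ABTAA libraries were all below the Fc libraries, at -0.33 ± 0.15 (SE, adjusted p = 0.271), and its VEGF Trap libraries overlapped them. Ndufb8, another distal membrane-arm subunit, read 193, 200.4 and 190.1 CPM with Fc, 168, 157 and 183 with ABTAA and 159, 175 and 174 with VEGF Trap. Both reagent groups lay below Fc, at -0.20 ± 0.10 (SE, adjusted p = 0.355) and -0.20 ± 0.10 (SE, adjusted p = 0.377), without passing the test. Its 3′ end is shared with the overlapping model Gm20538, so reads of the pair may have been split. Ndufb2 read 24.9, 27.9 and 22.98 CPM with Fc, 16.4, 20.1 and 25.03 with ABTAA and 23.6, 25.99 and 23.2 with VEGF Trap, with overlapping groups, and its 3′ end overlaps Braf on the other strand.

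As a list, 16 of 19 membrane-arm accessory genes had an ABTAA log2 fold change below 0, with a median of -0.163, and 14 of 19 were below 0 with VEGF Trap, with a median of -0.068. Of all tested genes, 50.4% and 49.9% were below 0, with medians of -0.003 and 0.001. The summed level of these 19 genes was 1006, 1109 and 1080 CPM with Fc, 888, 911 and 958 CPM with ABTAA, and 880.5, 991 and 954 CPM with VEGF Trap. Fc libraries did not overlap those of the reagents, but this separation rested on the 2 called genes. Without Ndufb3 and Ndufa10, the other 17 genes summed to 824 to 906.9 CPM with Fc, 773.8 to 827.1 CPM with ABTAA and 746.4 to 862 CPM with VEGF Trap, and Fc 1 lay below ABTAA 3, VEGF Trap 2 and VEGF Trap 3. The median of these 17 genes was -0.13 with ABTAA, with 14 below 0, and -0.059 with VEGF Trap, with 12 below 0, and none passed. For all 19 the ABTAA median was -0.11 to -0.206 when single libraries were left out and -0.21 with library totals. The VEGF Trap median was -0.027 without VEGF Trap 1, -0.128 without VEGF Trap 2, -0.136 without VEGF Trap 3, -0.109 without Fc 1 and -0.151 with library totals.

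The 7 core subunits of the matrix arm carry the flavin and the iron-sulfur clusters. None of the 6 described here passed in any comparison (edgeR), none had an unadjusted p under 0.05, and neither DESeq2 nor limma-voom called any. Ndufv1, which binds NADH and the flavin, read 35.3, 32.2 and 24.8 CPM with Fc, 36.5, 36.8 and 28.3 with ABTAA and 32.1, 34.1 and 38.7 with VEGF Trap. Ndufv2, its iron-sulfur partner, read 51.2, 51.4 and 61.9 CPM with Fc, 46.9, 43.4 and 53.2 with ABTAA and 45.4, 57.6 and 46.9 with VEGF Trap. Ndufs1, the largest iron-sulfur subunit, read 108, 108 and 127 CPM with Fc, 116, 138 and 116 with ABTAA and 128, 109 and 163 with VEGF Trap. The groups overlapped for all 3 genes, with log2 fold changes from -0.20 to 0.22 over both reagents.

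Ndufs3, a structural core subunit, read 13.3, 17.99 and 14.3 CPM with Fc, 15.8, 13.1 and 13.1 with ABTAA and 18.2, 14.4 and 14.0 with VEGF Trap. The iron-sulfur subunit Ndufs8 read 39.2, 57.8 and 51.5 CPM with Fc, 46.5, 54.4 and 38.95 with ABTAA and 43.8, 47.7 and 61.6 with VEGF Trap. For both genes the groups overlapped, and the signs of the differences near 0 turned under some alternatives. Ndufs7, which holds the last cluster before ubiquinone, read 20.3, 20.03 and 22.1 CPM with Fc, 16.8, 21.1 and 20.2 with ABTAA and 15.5, 18.1 and 15.5 with VEGF Trap. Its VEGF Trap libraries all lay below Fc, at -0.34 ± 0.16 (SE, adjusted p = 0.327) on the log2 scale, and its ABTAA libraries overlapped Fc, at -0.11 ± 0.16 (SE, adjusted p = 0.809). The summed level of these 6 core genes was 267.1 to 301.2 CPM with Fc, 270.2 to 306.9 CPM with ABTAA and 280.8 to 339.1 CPM with VEGF Trap, with overlapping groups. All counts of Ndufs1 and Ndufv2 were multiples of 2 and all of Ndufs8 multiples of 3, a pattern that repeated entry of reads would give. Their counting error is then larger than the counts show.

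In the matrix arm, no accessory gene passed in any comparison by edgeR. At an unadjusted p under 0.05 there was 1 with ABTAA, Ndufa5, and 1 with VEGF Trap, Ndufa9. Ndufa5, a subunit near the ubiquinone site (chromosome 6, 24518666 to 24528013, minus strand), read 80.9, 83.1 and 91.1 CPM with Fc, 61.9, 56.2 and 65.1 with ABTAA and 80.8, 65.4 and 70.2 with VEGF Trap. The ABTAA libraries lay below those of both other groups, and the difference from Fc was -0.48 ± 0.13 (SE, adjusted p = 0.0611). It passed in 8 of 20 alternatives, with adjusted p = 0.00749 by DESeq2 and 0.0382 by limma-voom, and was -0.53 to -0.42 over all 20, with adjusted p up to 0.243. With VEGF Trap it was -0.24 ± 0.12 (SE, adjusted p = 0.381). Ndufa9, a subunit at the joint of the arms with a bound nucleotide, read 13.8, 17.5 and 18.4 CPM with Fc, 13.7, 13.1 and 14.4 with ABTAA and 11.2, 11.3 and 8.87 with VEGF Trap. It was lower in every VEGF Trap library than in the other 6, at -0.66 ± 0.19 (SE, adjusted p = 0.0895) against Fc, and passed in 1 of 20 alternatives, DESeq2 (adjusted p = 0.0359, and up to 0.268 in the others). With ABTAA it was -0.27 ± 0.19 (SE, adjusted p = 0.5), and the groups overlapped. Ndufa9 shares exon sequence with 1700018A23Rik on the other strand, and the sources used here do not say whether strand was counted.

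No member passed as higher than Fc, and 10 of 37 with ABTAA and 15 of 37 with VEGF Trap had a log2 fold change above 0. Ndufa2, a matrix-arm subunit with a thioredoxin-like fold, read 242, 251 and 243 CPM with Fc, 270.3, 267 and 266 with ABTAA and 267, 263 and 268 with VEGF Trap. All 6 reagent libraries were above the Fc libraries, by 0.13 ± 0.09 (SE, adjusted p = 0.545) with ABTAA and 0.12 ± 0.09 (SE, adjusted p = 0.604) with VEGF Trap, and neither difference passed. Ndufs6, a zinc-binding subunit of the NADH-oxidizing module, read 265, 216 and 250.0 CPM with Fc, 283, 271 and 261 with ABTAA and 286, 260.2 and 296 with VEGF Trap. Its groups overlapped, at 0.16 ± 0.11 (SE, adjusted p = 0.496) and 0.20 ± 0.11 (SE, adjusted p = 0.385). Ndufs6 and Ndufa2 held the most counts of the members and made up 23.2% of the summed CPM of all 37. Ndufa7, a further matrix-arm subunit, lay above Fc in all ABTAA libraries, at 0.22 ± 0.13 (SE, adjusted p = 0.412), and overlapped with VEGF Trap. Opposite-strand exons overlap Ndufa2 (Tmco6) and Ndufs6 (Mrpl36).

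Ndufab1, the mitochondrial acyl carrier protein, had the fewest counts of the 37 genes, with a level of 3.18, 5.35 and 4.51 CPM with Fc, 3.93, 3.97 and 2.66 with ABTAA and 2.16, 3.28 and 4.44 with VEGF Trap. Its groups overlapped, and the log2 interval with ABTAA ran from -1.04 to 0.45, so a change of either sign within it was not excluded. It has 3′ copies at Gm4459 and Ndufab1-ps. Ndufa4 read 31.2, 31.7 and 30.2 CPM with Fc, 31.2, 27.9 and 34.3 with ABTAA and 38.6, 30.2 and 32.3 with VEGF Trap. Its ABTAA difference was 0.00 ± 0.15 (SE, adjusted p = 0.998) and its VEGF Trap difference 0.12 ± 0.14 (SE, adjusted p = 0.749). The related symbol Ndufa4l2, known as a hypoxia-induced gene and outside the rule, read 2.99, 2.89 and 5.19 CPM with Fc, 5.68, 5.95 and 7.04 with ABTAA and 4.64, 5.99 and 3.47 with VEGF Trap, and its ABTAA difference of 0.74 ± 0.32 (SE, adjusted p = 0.246) did not pass.

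The remaining members are given by role. In the matrix arm, Ndufs4, whose loss in mice gives a model of Leigh syndrome, read 18.2, 20.7 and 19.4 CPM with Fc, 14.5, 20.5 and 19.9 with ABTAA and 21.1, 17.3 and 22.9 with VEGF Trap. Ndufa12 read 27.3, 37.1 and 28.8 CPM with Fc, 25.8, 28.3 and 20.8 with ABTAA and 29.1, 22.6 and 26.1 with VEGF Trap, and Ndufa6, which binds the acyl carrier protein, read 65.9, 53.98 and 65.8 CPM with Fc, 60.6, 62.7 and 68.8 with ABTAA and 60.02, 52.2 and 67.5 with VEGF Trap. Groups of all 3 genes overlapped, with ABTAA differences of -0.09, -0.31 and 0.05 on the log2 scale. In the membrane arm, Ndufa13 (also named Grim19) read 89.1, 91.7 and 97.8 CPM with Fc, 77.3, 86.1 and 92.6 with ABTAA and 74.4, 93.99 and 85.8 with VEGF Trap. The X-linked Ndufa1, needed for assembly of the complex, read 37.7, 40.6 and 49.9 CPM with Fc, 34.4, 38.6 and 39.4 with ABTAA and 35.8, 39.6 and 33.7 with VEGF Trap, and Ndufb7, a subunit on the outer face, read 47.2, 53.04 and 49.9 CPM with Fc, 43.9, 43.5 and 40.99 with ABTAA and 49.7, 46.5 and 48.4 with VEGF Trap. The ABTAA libraries of Ndufb7 lay below Fc, at -0.23 ± 0.12 (SE, adjusted p = 0.379), and those of the other pair overlapped Fc. The other 12 members (Ndufa3, Ndufa8, Ndufa11, Ndufb6, Ndufb9, Ndufb10, Ndufb11, Ndufc1, Ndufc2, Ndufs5, Ndufv3 and, in part described above, Ndufa7) overlapped Fc with both reagents, apart from Ndufa7 with ABTAA. The log2 fold changes of these 12 ran from -0.21 (Ndufc2) to 0.22 (Ndufa7) with ABTAA and from -0.22 (Ndufb9) to 0.14 (Ndufa3) with VEGF Trap.

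Counted over all 37 members, libraries did not overlap in the lower direction for 6 genes with ABTAA (Ndufa10, Ndufa5, Ndufb3, Ndufb5, Ndufb7 and Ndufb8), where 11.3% of all tested genes did so. They did not overlap in the higher direction for 2 genes (Ndufa2 and Ndufa7; 11.7% of all tested genes). With VEGF Trap, 7 members were lower without overlap (Ndufa10, Ndufa5, Ndufa9, Ndufb3, Ndufb4, Ndufb8 and Ndufs7), where 10.5% of all tested genes were, and Ndufa2 was higher, where 10.4% were. The median log2 fold change of the members was -0.105 with ABTAA, with 27 of 37 below 0, and -0.057 with VEGF Trap, with 22 of 37 below 0. Without Fc 2 these medians were -0.045 and -0.016, without Fc 1 they were -0.154 and -0.096, and with library totals -0.15 and -0.136. The VEGF Trap median was -0.027, -0.112 and -0.094 without VEGF Trap 1, 2 or 3. Summed levels were 2234 to 2384 CPM with Fc, 2182 to 2238 CPM with ABTAA and 2171 to 2345 CPM with VEGF Trap, and these ranges overlapped. Without Ndufs6 and Ndufa2 the other 35 genes summed to 1727 to 1900.0 CPM with Fc, 1630.0 to 1699 CPM with ABTAA, which did not overlap Fc, and 1618 to 1781 CPM with VEGF Trap, which did. Ndufs6 and Ndufa2 had log2 fold changes above 0 with both reagents, and this sum still held the called genes Ndufb3 and Ndufa10. Fc 1 at 1727 CPM and ABTAA 2 at 1699 CPM lay closer in this sum than in Ndufa10 alone (94.6 against 57.9 CPM). The separation would thus be lost without Ndufa10, and it does not describe the members as a whole. The 95% interval lay within 0.5 log2 units on either side of 0, a 1.41-fold change, for 23 members with ABTAA and 24 with VEGF Trap, and within 1 log2 unit for 35 and 34.

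**Figure D3:**
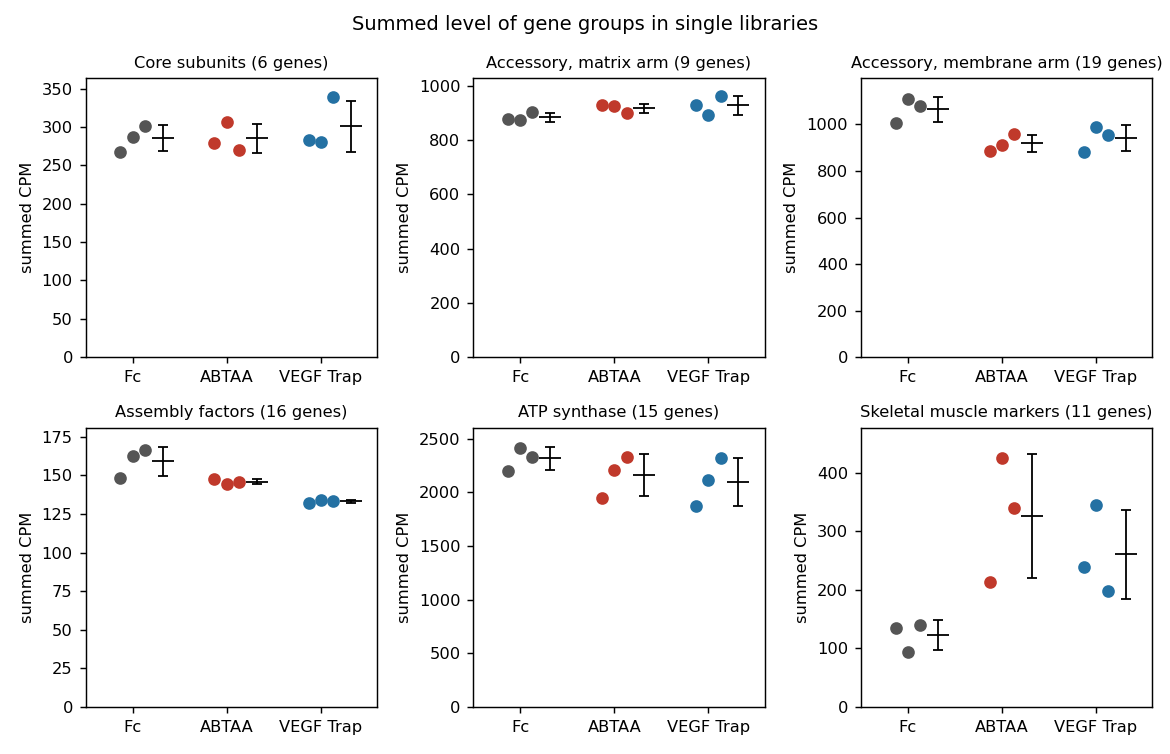
Summed CPM (TMM-scaled, axes from 0) of 6 gene groups in each library, with the mean and SD of each group of 3. The membrane-arm accessory sum is 1006 to 1109 with Fc and at most 991 in the reagent libraries, the core sums overlap, and the skeletal muscle markers are lowest with Fc.

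ABTAA and VEGF Trap were then compared directly. No member and no other gene passed (edgeR, 0.0% of 14054 genes), no member had an unadjusted p under 0.05, and 711 genes (5.06%) did. DESeq2 called 1 gene that is not a member, and limma-voom called 0. The smallest p among members was that of Ndufa9, higher with ABTAA than with VEGF Trap in every library, at 0.38 ± 0.19 (SE, adjusted p = 0.968). Ndufa5 followed, lower with ABTAA in every library, at -0.24 ± 0.13 (SE, adjusted p = 0.968). The remaining member without overlap was Ndufb7, another membrane-arm subunit, at -0.17 ± 0.12 (SE, adjusted p = 0.97). Such separation of libraries occurred in 4.74% of tested genes for lower and 5.14% for higher. For 26 of 37 members the 95% interval lay within 0.5 log2 units of 0, and for all 37 within 1 unit. The members outside the narrower limit included Ndufa5, Ndufa9, Ndufb4 and Ndufab1, for which a difference of that size between the reagents was not excluded.

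Genes that act on complex I were examined beside its subunits. Of 16 assembly factors none passed with ABTAA (edgeR), with 1 at an unadjusted p under 0.05 and none called by DESeq2 or limma-voom. With VEGF Trap 1 of 16 was lower, where 0.555% of all tested genes were. This was Foxred1, an oxidoreductase needed for complex I assembly. Foxred1 read 19.6, 25.5 and 20.4 CPM with Fc, 16.4, 21.1 and 19.2 with ABTAA and 12.4, 10.9 and 9.98 with VEGF Trap. All VEGF Trap libraries were below the other 6, and the log2 fold change was -0.97 ± 0.18 (SE, adjusted p = 0.0227) with VEGF Trap and -0.21 ± 0.18 (SE, adjusted p = 0.611) with ABTAA. The VEGF Trap call missed the threshold in 4 of 20 alternatives, the omission of Fc 2, VEGF Trap 2 or VEGF Trap 3 and removal of the common divisor, with adjusted p up to 0.142. Summed assembly factors were 148.5 to 166.5 CPM with Fc, 144.6 to 147.6 CPM with ABTAA and 132.3 to 133.9 CPM with VEGF Trap, with no overlap between groups. Foxred1 is part of these sums. The lowest Fc sum (148.5 CPM, Fc 1) and the highest ABTAA sum (147.6 CPM, ABTAA 1) lay closer than their Foxred1 levels (19.6 and 16.4 CPM). Without Foxred1 the Fc and ABTAA sums would thus overlap. How far the VEGF Trap sums stand apart without Foxred1 was not tested. The median log2 fold change of the 16 genes was -0.015 with ABTAA and -0.108 with VEGF Trap, with 7 above 0 in each comparison.

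Of 10 regulators of respiratory genes 1 was lower with each reagent, Lrpprc, which stabilizes mitochondrial mRNAs. The shares of all tested genes that were lower were 0.676% with ABTAA and 0.555% with VEGF Trap. Lrpprc read 49.9, 54.3 and 42.0 CPM with Fc, 17.7, 19.2 and 30.8 with ABTAA and 17.6, 22.9 and 19.96 with VEGF Trap. The Fc libraries were above all others, and the log2 fold change was -1.13 ± 0.19 (SE, adjusted p = 0.0142) with ABTAA and -1.27 ± 0.19 (SE, adjusted p = 0.00757) with VEGF Trap. It passed in 18 and 19 of 20 alternatives. The call with ABTAA missed the threshold without Fc 2 or ABTAA 2 (adjusted p up to 0.102), and that with VEGF Trap without Fc 2 (adjusted p = 0.0655). Gabpb1, a subunit of the ETS factor GABP, read 14.5, 19.3 and 15.4 CPM with Fc, 5.47, 4.17 and 8.76 with ABTAA and 11.1, 6.34 and 21.6 with VEGF Trap. Its ABTAA libraries all lay below Fc, at -1.45 ± 0.39 (SE, adjusted p = 0.0783), and its VEGF Trap libraries overlapped Fc, at -0.37 ± 0.36 (SE, adjusted p = 0.69). It did not pass with edgeR, and with ABTAA it passed in 6 of 20 alternatives, DESeq2 and limma-voom among them, with adjusted p from 0.0046 to 0.272. The coactivator Ppargc1a read 32.7, 34.8 and 30.2 CPM with Fc, 22.9, 27.4 and 20.2 with ABTAA and 34.7, 31.1 and 31.3 with VEGF Trap, at -0.47 ± 0.15 (SE, adjusted p = 0.117) with ABTAA. Tfam, which maintains mitochondrial DNA, differed by -0.38 ± 0.22 (SE, adjusted p = 0.425) and -0.53 ± 0.22 (SE, adjusted p = 0.253). Neither Ppargc1a nor Tfam passed.

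In complexes II to V, 1 of 38 measured subunit genes was lower with each reagent and none higher. Among all tested genes, 0.676% were lower with ABTAA and 0.555% with VEGF Trap. The called gene with ABTAA was Cox7c, a complex IV subunit, at -0.66 ± 0.15 (SE, adjusted p = 0.0367). With VEGF Trap the called gene was Cox6b1, also of complex IV, at -0.59 ± 0.13 (SE, adjusted p = 0.0373). Cox6b1 was also below Fc in every ABTAA library, at -0.48 ± 0.13 (SE, adjusted p = 0.0665), and passed there in 5 of 20 alternatives, and Cox7c was below Fc in every VEGF Trap library, at -0.42 ± 0.14 (SE, adjusted p = 0.154), and passed there in 0 of 20. Cox7c lost its call with any Fc or ABTAA library left out and under the GC correction (adjusted p up to 0.159). Cox6b1 lost it without Fc 2, Fc 3, ABTAA 2 or any VEGF Trap library (adjusted p up to 0.178). The medians of the 38 genes were -0.091 with ABTAA and -0.068 with VEGF Trap, beside -0.105 and -0.057 for the complex I members. In complex V, 12 of 15 genes were below 0 and 3 above 0 with each reagent, with medians of -0.136 and -0.154. The medians of complexes II, III and IV were -0.018, -0.02 and 0.018 with ABTAA and -0.085, -0.018 and 0.018 with VEGF Trap. These medians depended on the processing. Under the GC correction the 38 genes had medians of -0.124 and -0.123, and the members -0.094 and -0.044. Complexes II, III, IV and V then had medians of 0.017, -0.22, -0.042 and -0.168 with ABTAA. With VEGF Trap they were -0.06, -0.114, -0.073 and -0.153.

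Some marker lists differed between groups and others did not. No photoreceptor, lens or RPE marker passed with either reagent (edgeR). Among all tested genes, 0.982% passed as higher and 0.676% as lower with ABTAA, and 0.662% and 0.555% with VEGF Trap. Summed skeletal muscle markers were 94.2 to 140.4 CPM with Fc, 213.5 to 425 CPM with ABTAA and 197.8 to 344.3 CPM with VEGF Trap. Of these 11 genes 6 were higher with ABTAA and 2 with VEGF Trap, and none was at 0 in any library, the lowest count being 1 (Myh13). The VEGF Trap count was 7 under DESeq2, 4 under limma-voom, 1 with library totals and 0 with the GC correction. Endothelial markers summed to 1685 to 2125 CPM with Fc, 2638 to 2753 CPM with ABTAA and 2023 to 2217 CPM with VEGF Trap, with 5 and 1 of 11 higher and none at 0 in any library. Here the VEGF Trap count was 3 under DESeq2, 2 under limma-voom and 0 with library totals or the GC correction. Macrophage markers summed to 1531 to 1682, 1216 to 1468 and 1522 to 1766 CPM, with C1qb and Itgam lower with ABTAA among 9 genes. Of these 9, 7 had an ABTAA log2 fold change below 0, and Cd68 (0.01) and Csf1r (0.04) lay just above 0. Neutrophil markers summed to 90.5 to 516 CPM with Fc, 47.9 to 64.9 CPM with ABTAA, below every Fc library, and 54.4 to 113.4 CPM with VEGF Trap, which overlapped Fc. With ABTAA, S100a8 differed by -2.16 ± 0.78 (SE, adjusted p = 0.24) and S100a9 by -2.43 ± 0.75 (SE, adjusted p = 0.177), which edgeR did not call and DESeq2 did. Markers listed for melanocytes (Tyr, Tyrp1, Dct, Pmel, Mlana and Mitf) summed to 2214 to 2527, 2866 to 2966 and 2348 to 4125 CPM. Of these 6, 1 was higher with ABTAA (Pmel) and 2 with VEGF Trap (Pmel and Tyr). Pigment genes of this kind are not restricted to melanocytes, so the list does not tell melanocytes from RPE. With ABTAA, DESeq2 called 4 macrophage and 3 melanocyte genes, limma-voom 3 macrophage genes and the GC correction 1, and with library totals 1 melanocyte gene was called with VEGF Trap. Their part in the values of Ndufb3 and Ndufa10 was not tested. With Fc 1 left out, the library high in neutrophil markers, Ndufb3 had the log2 fold changes of -0.70 and -0.74 given above. With VEGF Trap 1 left out, the library high in photoreceptor markers, the VEGF Trap difference of Ndufb3 was -0.70.

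The genes whose log2 CPM followed Ndufb3 most closely over the 9 libraries were Pls3 (Pearson r = 0.981), an actin-bundling protein, Tubb2a (0.978), a tubulin, Rps23 (0.964), a ribosomal protein, C330021F23Rik (0.964) and Acp1 (0.963), a phosphatase. Within the members the closest were Ndufb4 (0.861) and Ndufa10 (0.80). These are descriptions over 9 libraries that share 3 groups.

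**Figure D4:**
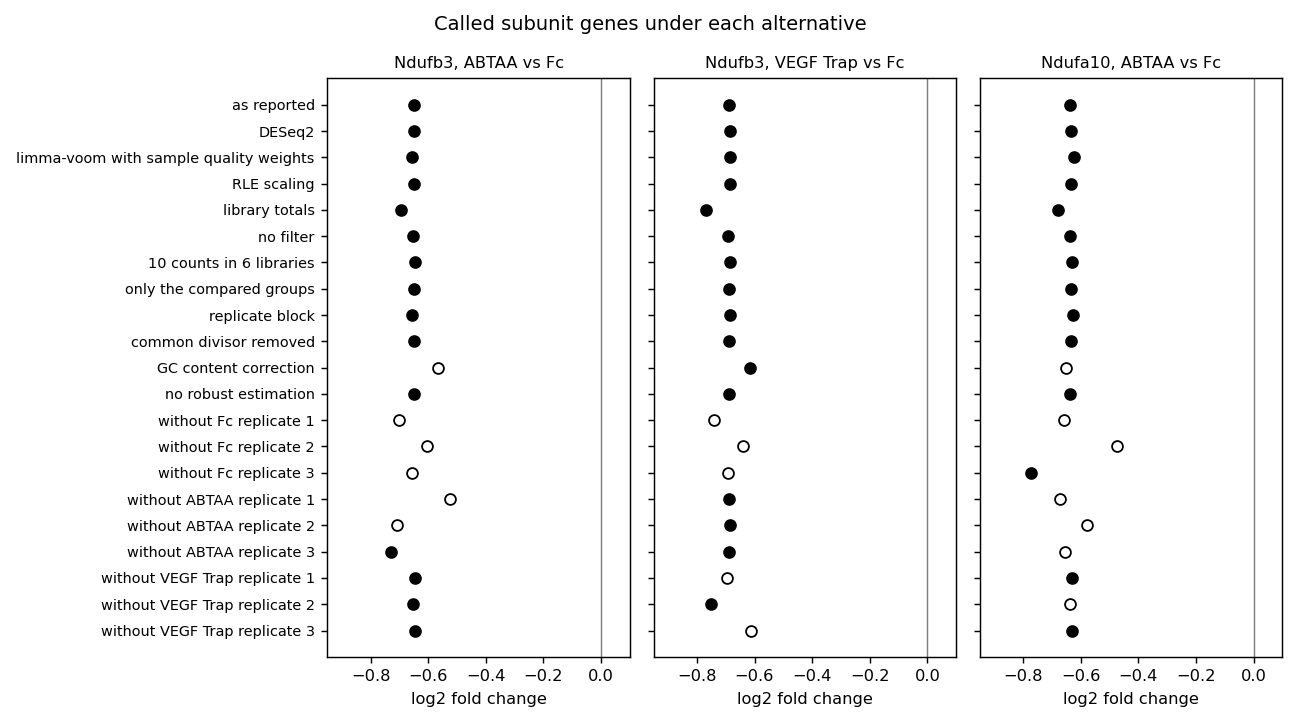
Log2 fold change of the 3 member calls, Ndufb3 with ABTAA, Ndufb3 with VEGF Trap and Ndufa10 with ABTAA, as reported and under 20 alternatives, with filled points for an adjusted p under 0.05. All points lie left of 0, and most open points are omissions of single libraries.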

How the data were processed

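RNA from the RPE and choroid complex around laser lesions was sequenced in 9 libraries, 3 per reagent. The authors deposited raw counts, 1 whole number for each gene symbol and library. Per the submitters' processing notes, Bowtie2, edgeR and the mm10 build were used. No version, annotation, counting tool or strand setting is named there. Groups follow the sample titles.

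Counts were tested with edgeR 4.0.16 in R 4.3.3 (filterByExpr, TMM scaling, robust quasi-likelihood F-test), all 9 libraries in 1 model with 6 residual degrees of freedom, Benjamini-Hochberg over 14054 genes within each comparison and a threshold of 0.05. The biological coefficient of variation was 17.9%. Standard errors come from the fold change and its F value. The script was tested on simulated data. Depth was 6335805 to 14439835 counts per library, and a floor of 3 counts was 0.208 to 0.473 CPM, which covers counting error only.

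Alternatives were DESeq2 1.42.0, limma-voom (limma 3.58.1) with sample quality weights, RLE scaling, library totals, no filter, 10 counts in 6 libraries, a fit of only 2 groups, a replicate block, counts divided by their common divisor, a GC correction, each library left out, and, chosen after seeing the data, no robust estimation. Coordinates and GC content came from GENCODE M21 (GRCm38), promoters from RefSeq. The last 200 bases of member transcripts were searched against all transcripts with BLAST+ 2.17.0, and a match of 100 bases at 95% identity counted as a copy.

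The members, the gene lists and the motifs were chosen with earlier results of these data known. Described with values per library were members past the threshold, the 6 smallest p in each comparison with Fc and the 4 smallest between reagents, 6 of the 7 core subunits (the values of 1 member are not reported here), the 2 highest and 2 lowest mean CPM (a ranking of counts, not of transcript levels), Ndufa4 and Ndufab1, called genes of the other lists, and the 5 genes most like Ndufb3. The other members named with values, Ndufa4l2, Ppargc1a, Tfam, Gabpb1, S100a8 and S100a9 were named after their values were seen.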

Additional observations from a re-analysis of the deposited data

How the results depend on the processing

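Each result was recomputed under 20 alternatives. With ABTAA against Fc, 2 members passed as reported, 3 under DESeq2, limma-voom, library totals, no filter, only the compared groups, the replicate block and removal of the common divisor (Ndufa5 added), and 0 under the GC correction, where Ndufb3 had adjusted p = 0.0641 and Ndufa10 0.0501. Leaving out single libraries gave 0 to 3. With VEGF Trap against Fc, 1 member passed as reported, 3 under DESeq2, 2 under library totals, no filter and removal of the common divisor, and 0 to 1 with single libraries left out. Over all genes, 233 passed with ABTAA (138 higher, 95 lower), 750 under DESeq2, 411 under limma-voom, 567 with no filter, 353 with only the compared groups, 383 with the common divisor removed, 97 with the GC correction and 7 to 408 with single libraries left out. With VEGF Trap 171 passed (93 higher, 78 lower), 671 under DESeq2, 502 with no filter, 348 with the common divisor removed and 8 to 192 with single libraries left out. Between the reagents, 0 passed, 1 under DESeq2 and 2 with no filter. Library totals turned the split to 89 higher and 148 lower with ABTAA and 48 and 193 with VEGF Trap. The labels do not say what a replicate number stands for. Correlations of same-numbered libraries, after the group mean was taken off, were weak, at 0.013 to 0.112, with 2 of 9 over 0.1. Those of different-numbered libraries were -0.092 to 0.037. In 17 of 18 cases the best match in another group had the same number. What libraries of equal number share was not tested. With the replicate block the counts over all genes were 429, 357 and 1, and over members 3, 1 and 0.

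Signs turned for differences near 0 that passed nowhere. With ABTAA, Ndufa4 was -0.012 under limma-voom, -0.043 with library totals, -0.001 with no filter and -0.003 with the replicate block. With VEGF Trap, Ndufb2 was 0.017 under the GC correction, Ndufs3 was -0.01 under limma-voom, -0.047 with library totals and -0.003 under the GC correction, and Ndufs8 was -0.044 with library totals and -0.029 under the GC correction. Between the reagents, Ndufa2 was -0.001 under the GC correction and Ndufb8 -0.019 under limma-voom. With single libraries left out, ABTAA values ran from -0.071 to 0.078 (Ndufa4), -0.213 to 0.025 (Ndufs3) and -0.226 to 0.041 (Ndufs8), and VEGF Trap values from -0.128 to 0.021 (Ndufb2), -0.091 to 0.175 (Ndufs3) and -0.114 to 0.16 (Ndufs8). Between the reagents they ran from -0.103 to 0.38 (Ndufab1), -0.039 to 0.166 (Ndufb3), -0.351 to 0.195 (Ndufb4), -0.056 to 0.053 (Ndufb8), -0.23 to 0.065 (Ndufs1), -0.249 to 0.033 (Ndufs8), -0.104 to 0.071 (Ndufv1) and -0.148 to 0.049 (Ndufv2). The cause was not tested. Depth limits Ndufab1 most, with a standard error of 0.35 with ABTAA.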
